A study of Mus musculus with 6 samples.

Results

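The genes described here are 51 astrocyte genes, chosen by symbol from a list of 25 general (homeostatic) genes and 26 genes that rise in reactive astrocytes, and read out of a table of 48795 Ensembl genes. All 51 were found in the table. Of these, 45 had enough counts to be tested, all 25 general genes and 20 of the 26 reactive genes. Polyadenylated RNA came from the hippocampus of mice on a C57BL/6J background. The knockout (KO) mice carried Kdm1a f/f, Kdm5c f/f and CamKIIα-CreERT2, a recombinase that acts after tamoxifen and whose expression is limited to principal neurons of the forebrain. Recombination removes exons 5 and 6 of Kdm1a and exons 11 and 12 of Kdm5c, which encode demethylases of histone H3 lysine 4. Control mice are labelled WT, and whether they carried floxed alleles or the recombinase is not given in the sources used here. All 6 libraries are labelled as from mice given tamoxifen, which the study gave at 2 to 3 months of age, and each group had 3 libraries; the time from tamoxifen to dissection is not given in the sources used here. Astrocytes do not express the recombinase by this design. The comparison asks how levels of astrocyte genes in whole hippocampus differed between mice with and without the deletion in neurons. Reads of these genes can also come from other cells, the neurons with the deletion among them. Which cells gave any difference was not tested. No label ties the libraries of a group to different animals, and the p-values below then describe the spread among these samples, which may be technical.

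Astrocytes take up glutamate and potassium around synapses, convert glutamate to glutamine, are coupled to each other by gap junctions and line the blood vessels with endfeet rich in water channels. After injury, infection or neuronal disease they become reactive: they make more of the intermediate filaments GFAP and vimentin, and, depending on the insult, secreted protease inhibitors, complement proteins and cytokine receptors. STAT3, activated by cytokines of the interleukin-6 family, is a well known driver of this response. In RNA from whole tissue, more cells of a type and more RNA per cell cannot be told apart.

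Total counts were 19309576 to 19700249 per library. Kdm1a lay between 69.2 and 76.6 counts per 1000000 (CPM) in WT and between 37.6 and 40.0 CPM in KO. Kdm5c lay between 77.2 and 82.8 CPM in WT and between 65.3 and 74.3 CPM in KO, without passing the test (log2 fold change -0.17, SE 0.0640, adjusted p = 0.143 in edgeR). All 12 neuron markers were detected in every library, Prox1 of dentate granule cells at 94.5 to 124 CPM, and all 14 microglia markers were detected too. KO replicates 1 and 3 stood apart in genes of choroid plexus and leptomeninges. Ttr, the transthyretin of choroid plexus, was 58.9 and 56.0 CPM in these libraries, 1.60 CPM in KO replicate 2, and 19.1, 5.96 and 7.23 CPM in WT. The growth factor gene Igf2 was 63.7 and 58.4 CPM in KO replicates 1 and 3, 27.1 CPM in KO replicate 2 and 28.7 to 31.2 CPM in WT, and the collagen gene Col1a2 behaved alike (16.8 and 17.5 CPM, then 6.65 CPM, and 6.56 to 8.36 CPM). Results that rest on these 2 libraries are therefore also given without them.

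Across the 45 tested astrocyte genes, 5 rose in KO and 0 fell, at an adjusted p under 0.05 (quasi-likelihood test of edgeR, Benjamini-Hochberg adjusted over all 16861 genes tested). Of all genes tested, 6.95% changed, 5.90% upward and 1.05% downward. The reactive genes Gfap, Serping1, Cd109 and Sphk1 rose, 4 of 20 tested (26 listed), and of the 25 general genes Btbd17 alone rose. Without adjustment, p was under 0.05 in edgeR for 8 reactive genes, all higher in KO, and for 7 general genes, 6 higher and 1 lower. Of all 16861 genes tested, 3412 had such a p, in either direction. The unadjusted counts of the lists below are to be read beside that number. DESeq2 also called 4 reactive and 1 general rises and 0 falls. The median log2 fold change was 0.22 over the tested reactive genes and 0.07 over the general genes, against -0.01 over all genes tested. Marker lists of other non-neuronal cells had medians of 0.21 (microglia), 0.21 (oligodendrocytes), 0.15 (their precursors), 0.16 (endothelium), 0.30 (mural cells and fibroblasts) and 0.49 (choroid plexus and ependyma). Neuron markers had -0.07. In KO 16 of the 20 reactive and 20 of the 25 general genes were higher, called or not, beside 8125 of all 16861 genes tested. Each of the 4 reactive genes had at least 11 counts in every WT library, so none entered the test through its KO level alone. With KO replicates 1 and 3 both left out, which leaves 1 KO library that is assumed to vary like the others, the reactive median was 0.06 and 1 reactive and 0 general genes rose.

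**Figure D1:**
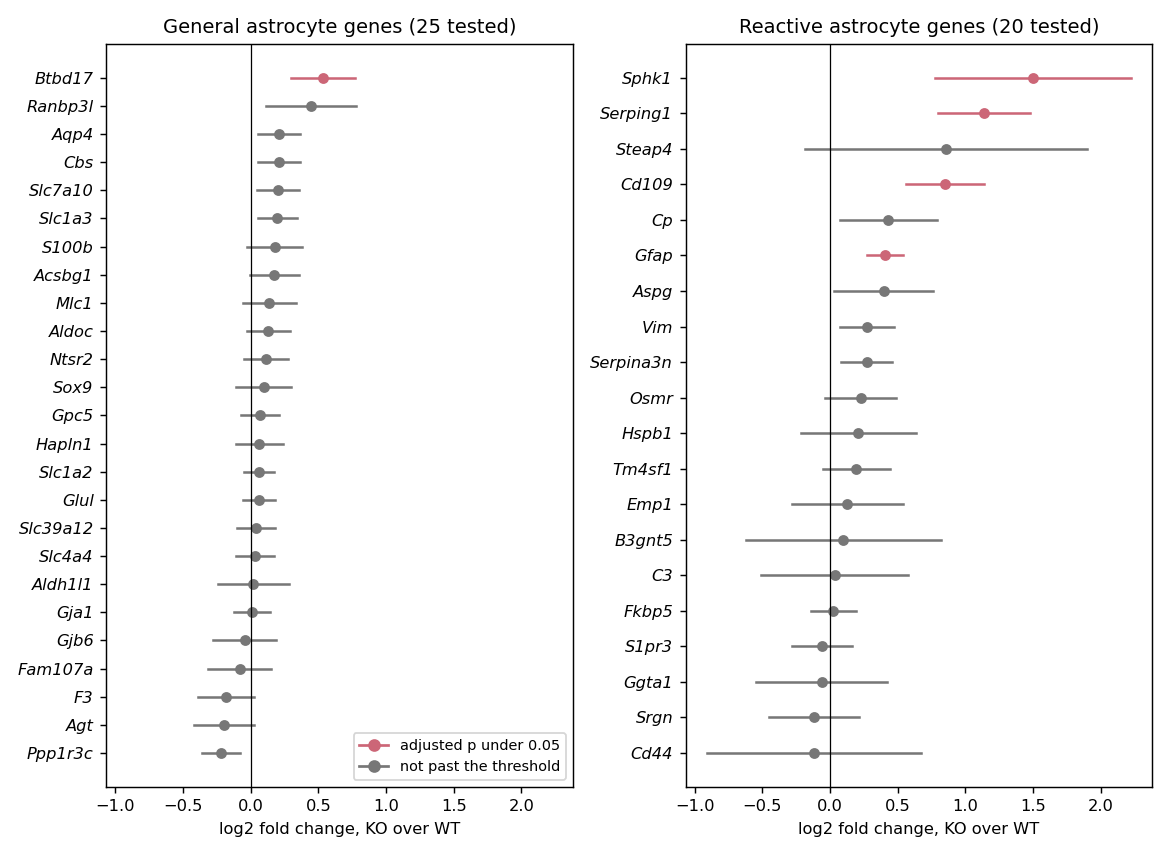
Log2 fold change (KO over WT, points) with 95% intervals (bars) for the 25 general (left) and the 20 tested reactive (right) astrocyte genes, from edgeR's quasi-likelihood fit. Most general genes lie close to 0, while Sphk1, Serping1, Cd109 and Gfap among the reactive genes and Btbd17 among the general ones passed the threshold.

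Promoter sequences are shown first for 3 of the genes that rose, Gfap, Btbd17 and Sphk1, and for Fkbp5, a reactive gene of steady level. Fkbp5 was picked for another base composition and is the extreme of the reactive genes in CpG content, as given below. RefSeq promoter windows (GRCm38.p6, 250 bases before to 50 after a start) matched 47 of the 51 genes by symbol; Aqp4, Cd109, Serping1 and Sox9 had no match. The first 280 bases of the outermost window of each gene are printed 5′ to 3′ on the gene's strand, and capitals mark CpG dinucleotides, the sites at which promoters can be methylated.
Gfap: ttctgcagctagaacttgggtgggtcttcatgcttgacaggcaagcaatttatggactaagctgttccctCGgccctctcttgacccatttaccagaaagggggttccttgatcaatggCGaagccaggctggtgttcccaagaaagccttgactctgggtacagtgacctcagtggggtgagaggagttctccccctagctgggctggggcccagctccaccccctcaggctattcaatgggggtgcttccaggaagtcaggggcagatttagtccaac
Btbd17: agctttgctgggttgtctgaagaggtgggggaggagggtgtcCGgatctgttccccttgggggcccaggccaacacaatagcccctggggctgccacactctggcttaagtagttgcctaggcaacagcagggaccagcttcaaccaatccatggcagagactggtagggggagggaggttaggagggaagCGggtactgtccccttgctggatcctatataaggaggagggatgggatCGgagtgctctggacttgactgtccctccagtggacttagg
Sphk1: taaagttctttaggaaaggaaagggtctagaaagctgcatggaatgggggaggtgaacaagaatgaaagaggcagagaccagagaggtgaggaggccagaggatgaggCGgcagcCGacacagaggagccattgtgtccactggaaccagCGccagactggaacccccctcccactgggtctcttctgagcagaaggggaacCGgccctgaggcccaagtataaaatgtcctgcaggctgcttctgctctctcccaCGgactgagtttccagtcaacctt
Fkbp5: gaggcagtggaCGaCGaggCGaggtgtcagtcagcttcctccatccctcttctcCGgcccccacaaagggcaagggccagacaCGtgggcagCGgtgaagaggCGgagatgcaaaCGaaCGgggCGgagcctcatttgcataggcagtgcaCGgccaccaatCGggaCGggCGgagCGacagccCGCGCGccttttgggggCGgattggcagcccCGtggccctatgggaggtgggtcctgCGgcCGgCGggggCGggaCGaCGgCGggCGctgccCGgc
They lie at chr11:102897171-102897450 (minus strand), chr11:114795863-114796142 (minus), chr11:116530850-116531129 (plus) and chr17:28486120-28486399 (minus). The stretches of Gfap, Btbd17, Sphk1 and Fkbp5 hold 2, 3, 5 and 29 CpG. Those of Gfap and Fkbp5 lie inside the GENCODE genes, which reach further upstream, to bases 102900912 and 28517527. Those of Btbd17 and Sphk1 lie partly inside their GENCODE genes.

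The ratio of observed to expected CpG had a median of 0.336 over the windows of 23 general genes and 0.402 over those of 24 reactive genes, against 0.741 over the 12014 tested genes with a window 0.644 over the 742 genes with a window that rose and 0.389 over all 27025 genes with a window, tested or not. It was at least 0.6 in 6 of 23 general and 3 of 24 reactive genes (26.1% and 12.5%), and in 67.7% of tested genes and 36.5% of all genes with a window. Among the general genes the ratio ran from 0.0446 for Agt to 1.06 for Slc4a4. The outermost windows of Gfap, Btbd17 and Sphk1 had 0.129, 0.127 and 0.257, while the other 4 windows of Sphk1 had 0.676 to 0.851. Reactive genes that did not pass had low ratios too, such as 0.061 for Tm4sf1, 0.141 for C3 and 0.246 for Cd44. Fkbp5, printed above, had the highest ratio of the 24 reactive genes, 0.872. Both medians were below that of the tested genes and near that of all genes with a window, with no test made.

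The letters TTCNNNGAA, the core to which STAT factors bind, were found on either strand (they read the same on both) in the windows of 8 of 47 members (17.0%), against 6.62% of tested genes and 8.42% of all genes with a window. The 8 were Gfap, Emp1, Steap4 and Tgm1 of the reactive genes and Acsbg1, Agt, Ntsr2 and Slc1a3 of the general genes, and of these Gfap alone rose. The Gfap match, TTCCAGGAA, spans bases -2 to 7 around the RefSeq start, counting the start as base 1, and so falls outside the 250 bases before it. In those 250 bases alone 7 of 47 members (14.9%) and 5.78% of tested genes had a match. Sphk1 had no match in its outermost window and one in 2 of its other windows. The letters TGANTCA, a loose pattern for AP-1 sites that allows any middle base, were searched on both strands. They were in 6 windows (12.8%), those of Cp, Cxcl10, Emp1, F3, Gja1 and Osmr, against 4.79% of tested genes and 7.92% of all genes with a window. The matches of Cp and Osmr read TGATTCA, and those of Cxcl10 and Gja1 TGAGTCA. The 2 other Sphk1 windows with TTCNNNGAA also held TGANTCA. Matches of TTCNNNGAA and TGANTCA overlap in Emp1. A match describes these letters in this window and nothing more.

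Gfap, an intermediate filament that is raised in reactive astrocytes, rose by 32.5% (95% interval 20.8 to 45.4%). It measured 326, 328 and 364 CPM in WT replicates 1, 2 and 3 and 429, 446 and 474 CPM in KO replicates 1, 2 and 3. Every KO library lay above every WT library, with a gap wider than the spread within either group; KO libraries lay above WT for 14.0% and below for 11.2% of all tested genes. The means were 339 ± 21.7 and 449.6 ± 23.1 CPM (SD, n = 3 each), a log2 fold change of 0.41 (SE 0.0621, adjusted p = 0.000793, edgeR). Gfap (ENSMUSG00000020932, chromosome 11, 102887336 to 102900912, minus strand, GRCm38) kept its call in 12 of 13 alternatives. With KO replicates 1 and 3 both left out its fold change was about as large, 0.39, but missed the threshold (adjusted p = 0.0937, edgeR).

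The rise of Gfap was also visible against other astrocyte transcripts in the same library. As a percentage of the summed CPM of the 25 general genes, Gfap was 4.15, 3.94 and 4.22% in WT and 4.93, 5.14 and 5.39% in KO, with no overlap between groups. Against Slc1a2 alone it was 11.1, 10.0 and 12.7% in WT and 13.4, 14.3 and 15.0% in KO. Against Aqp4 alone the groups overlapped, with 203, 216 and 276% in WT and 244, 261 and 283% in KO. The summed general genes are mostly Slc1a2 and Glul, which made up 51.4 to 56.8% of the sum in each library. Gfap itself made up 55.1 to 55.7% of the summed reactive genes in WT and 57.6 to 59.6% in KO. The reactive genes without Gfap came to 3.34, 3.14 and 3.43% of the general sum in WT and 3.52, 3.49 and 3.97% in KO, a smaller difference that still did not overlap.

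Serping1 encodes the C1 inhibitor, a secreted serpin that blocks the first step of the classical complement pathway, and had the smallest p of the 51 genes. Its level was 7.24, 6.16 and 6.56 CPM in WT and 15.0, 11.1 and 17.8 CPM in KO. All KO values lay above WT, but KO replicate 2 lay well below the other two. The means were 6.65 ± 0.543 and 14.6 ± 3.38 CPM (SD, n = 3 each), a log2 fold change of 1.14 (SE 0.157, adjusted p = 0.000300, edgeR). The order of the KO libraries matched that of the summed mural and fibroblast markers, which were 468, 340 and 476 CPM in KO replicates 1, 2 and 3 and 339 to 371 CPM in WT. In KO replicate 2 that sum was within the WT range, and Serping1 was 11.1 CPM. Against the WT libraries that replicate alone gave a log2 fold change of 0.73. The part of mural cells and fibroblasts in the rise was not tested. Serping1 (ENSMUSG00000023224) lies on chromosome 2, 84765387 to 84775444, minus strand.

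Cd109, a membrane glycoprotein that binds TGF-beta, rose from 9.07, 6.53 and 6.56 CPM in WT to 12.4, 13.1 and 14.5 CPM in KO. The groups did not overlap, and KO replicate 2 lay between the other two. The log2 fold change was 0.85 (SE 0.135, adjusted p = 0.00108, edgeR), from means of 7.39 ± 1.46 and 13.3 ± 1.08 CPM (SD, n = 3 each). Cd109 (ENSMUSG00000046186, chromosome 9, 78615546 to 78716253, plus strand) was the single member called in all 13 alternatives, also with KO replicates 1 and 3 both left out (log2 fold change 0.82, adjusted p = 0.0461, edgeR).

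Sphk1, the kinase that makes sphingosine 1-phosphate, had the largest fold change of the tested members and few counts. It had 26, 11 and 13 counts in WT and 59, 29 and 56 in KO, or 1.33, 0.575 and 0.677 CPM against 3.01, 1.49 and 2.84 CPM. The lowest KO library, replicate 2, was just above the highest WT library, replicate 1. Its log2 fold change was 1.5 (SE 0.337, adjusted p = 0.0135, edgeR), from 0.859 ± 0.407 to 2.45 ± 0.830 CPM (SD, n = 3 each). The call was lost without WT replicate 2 (adjusted p = 0.0675), KO replicate 1 (0.0640) or KO replicate 3 (0.0731), and with KO replicates 1 and 3 both left out the log2 fold change was 0.79 (0.617), all in edgeR. S1pr3, a receptor for its product, was 10.7, 9.98 and 11.4 CPM in WT and 10.1, 10.3 and 10.6 CPM in KO, which overlap. Sphk1 (ENSMUSG00000061878, chromosome 11, 116530925 to 116536674, plus strand) shares 4.02% of its exon bases with an antisense gene, and the strand setting of the counting is not given in the sources used here.

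Btbd17, a BTB-domain gene used as an astrocyte marker, was the general gene that rose. It measured 11.8, 9.45 and 9.58 CPM in WT and 13.9, 15.0 and 15.8 CPM in KO, with no overlap and with WT replicate 1 the highest of its group. The means were 10.3 ± 1.34 and 14.9 ± 0.932 CPM (SD, n = 3 each), a log2 fold change of 0.53 (SE 0.111, adjusted p = 0.00834, edgeR). The call was lost without KO replicate 3 (adjusted p = 0.0558) and with KO replicates 1 and 3 both left out (0.172), at similar fold changes of 0.49 and 0.54. Btbd17 (ENSMUSG00000000202) lies on chromosome 11, 114791217 to 114795945, minus strand.

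**Figure D2:**
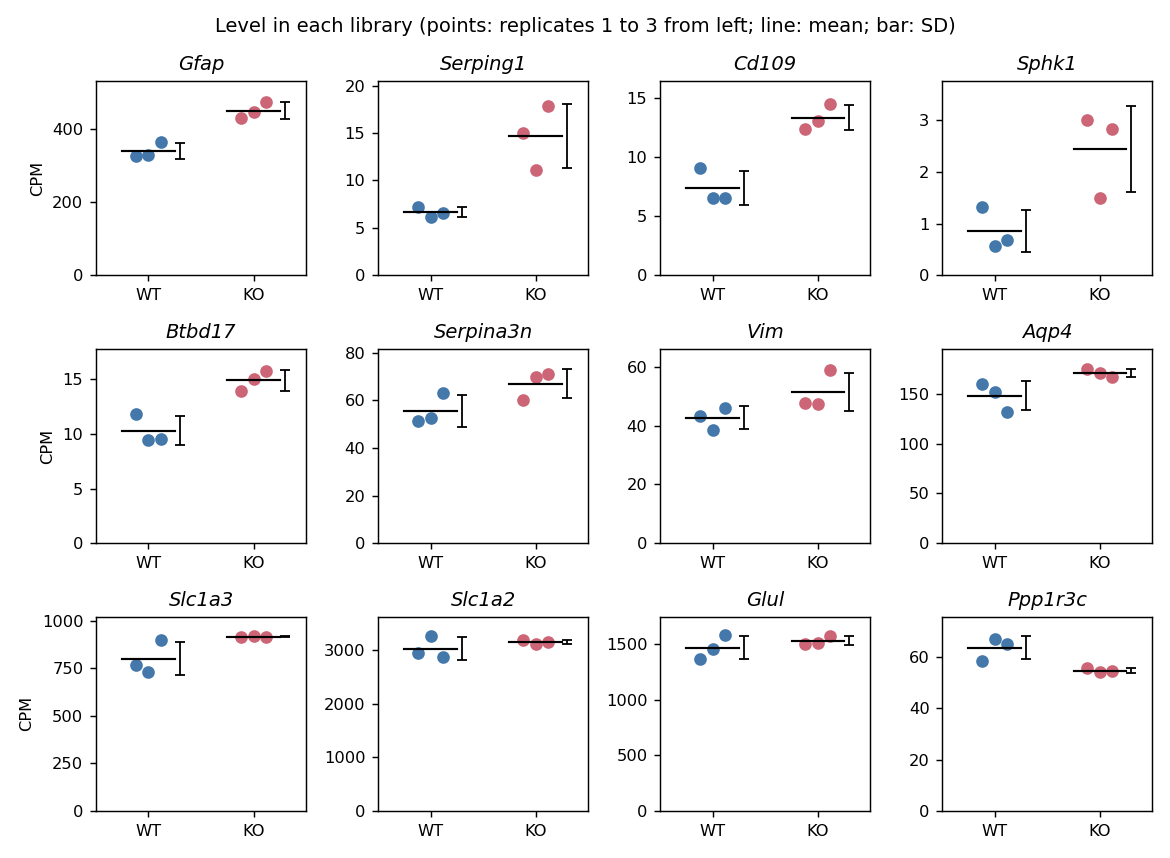
Level in CPM of 12 astrocyte genes in each library (points, replicates 1 to 3 from left), with the group mean (line) and SD (bar); each axis starts at 0. Gfap, Serping1, Cd109, Sphk1 and Btbd17 show KO points above all WT points, while Slc1a2 and Glul overlap between groups.

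Of the reactive genes that missed the threshold, Serpina3n and Vim had the smallest p. Serpina3n, a secreted serpin and a sensitive marker of reactive astrocytes, was 51.2, 52.4 and 63.3 CPM in WT and 60.2, 69.8 and 71.2 CPM in KO. The highest WT library reached into the KO range, and the log2 fold change was 0.27 (SE 0.0877, adjusted p = 0.0908, edgeR). Vim, the filament vimentin, was 43.5, 38.6 and 46.2 CPM in WT and 47.9, 47.6 and 59.2 CPM in KO (0.27, SE 0.0927, adjusted p = 0.107, edgeR), separate by a narrow gap and with KO replicate 3 highest. Serpina3n passed without WT replicate 3 (adjusted p = 0.00665) or KO replicate 1 (0.0499), and Vim without WT replicate 3 (0.0472), in edgeR; with the replicate number as a block the values were 0.0325 and 0.0429.

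Cp, the copper-carrying ferroxidase ceruloplasmin, showed how far 1 library could matter. It was 14.7, 13.9 and 14.3 CPM in WT and 22.1, 12.8 and 22.8 CPM in KO, so that KO replicates 1 and 3 lay above WT and KO replicate 2 below it. The log2 fold change was 0.43 (SE 0.166, adjusted p = 0.156), 0.65 without KO replicate 2 (adjusted p = 0.000999) and -0.16 with KO replicates 1 and 3 both left out (0.810), all in edgeR. The 2 high libraries are those with high Ttr, Igf2 and Col1a2, whose part in this was not tested.

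Aspg, an asparaginase, was 2.55, 3.45 and 3.12 CPM in WT and 4.13, 3.61 and 4.26 CPM in KO (log2 fold change 0.40, SE 0.169, adjusted p = 0.203, edgeR). Its groups were separate by a narrow gap. Osmr, the oncostatin M receptor, was 8.46, 10.9 and 9.11 CPM in WT and 11.4, 10.1 and 11.8 CPM in KO, which overlap. Steap4, a metalloreductase, stayed under 1 CPM: 0.612, 0.157 and 0.260 CPM in WT and 0.714, 0.361 and 0.812 CPM in KO, from 20 and 37 counts per group. Its 95% interval for the log2 fold change, -0.19 to 1.90, spans no change and a rise as large as that of Sphk1.

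Fkbp5, Tm4sf1, Hspb1 and Srgn did not differ beyond their spread. Fkbp5, a co-chaperone of the glucocorticoid receptor, was 73.8, 83.1 and 88.7 CPM in WT and 76.5, 84.0 and 89.1 CPM in KO, and its interval of -0.14 to 0.19 on the log2 scale leaves room only for small changes. Tm4sf1, a tetraspanin-like membrane protein, was 12.5, 10.4 and 14.4 CPM in WT and 13.8, 14.3 and 14.5 CPM in KO. Hspb1, a small heat shock protein, was 3.47, 4.34 and 6.04 CPM in WT and 4.79, 4.79 and 6.39 CPM in KO. Srgn, a proteoglycan core protein also made by microglia and endothelium, was 5.30, 5.01 and 6.14 CPM in WT and 4.69, 4.48 and 5.99 CPM in KO. All overlap. C3, the central complement component, had a log2 fold change of 0.03 with a wide interval of -0.51 to 0.58. Cd44, Ggta1, B3gnt5 and Emp1 lay between -0.12 and 0.13 without passing. Their intervals were wide too, -0.91 to 0.67, -0.55 to 0.42, -0.62 to 0.82 and -0.28 to 0.54. Each includes no change and a rise like that of Gfap.

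Lcn2, Timp1, Cxcl10, Slc10a6, Ptx3 and Tgm1 had too few counts to test. Lcn2, a secreted lipocalin that is a strong marker of inflammatory reactivity, had 1, 22 and 7 counts in WT replicates 1 to 3 and 3, 1 and 10 counts in KO. The chemokine gene Cxcl10 had 4, 3 and 4 counts in WT and 0, 1 and 12 in KO. Timp1, a metalloprotease inhibitor, had 21 counts over the WT and 26 over the KO libraries, Ptx3, a pentraxin, 24 and 27, Tgm1, a transglutaminase, 26 and 18, and Slc10a6, a transporter, 3 and 3. None of the 6 was separate between groups. With no filter on low counts edgeR called 6 of the 26 reactive genes, the 4 above with Serpina3n (adjusted p = 0.0339) and Cp (0.0403), and none of these 6.

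By type of stimulus in published lists, each kind held at least 1 gene that rose, beside 5.90% of all genes tested. Of the pan-reactive genes 1 of 10 tested (13 listed) rose, Gfap, with a median log2 fold change of 0.27. Of the genes tied to lipopolysaccharide 1 of 5 rose, Serping1, with a median of 0.02. Of those tied to ischaemia 2 of 5 tested (8 listed) rose, Cd109 and Sphk1, with a median of 0.19. The summed pan-reactive level was 466 to 521 CPM in WT and 596 to 665 CPM in KO. The summed ischaemia-type level was 22.0 to 26.7 and 33.3 to 37.3 CPM. The lipopolysaccharide-type sums overlapped (93.6 to 113 and 105 to 122 CPM), but Fkbp5 alone gave 81.9 of 102 CPM in the WT mean. Further genes tied to lipopolysaccharide or ischaemia are counted below with the other reactive genes. Of the lipopolysaccharide type, H2-T23 (log2 fold change 0.60, adjusted p = 0.0170, edgeR) and H2-D1 (0.48, adjusted p = 0.00795, edgeR) rose. Psmb8, Iigp1, Gbp2, Amigo2 and Fbln5 did not pass, and Ugt1a6a had too few counts to test. Of the ischaemia type, Clcf1 rose (1.16, adjusted p = 0.00116, edgeR), while S100a10, Ptgs2 and Cd14 did not pass.

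Among the general genes, per kilobase of exon, Glul, the glutamine synthetase, led with a mean of 451 CPM per kilobase over the 6 libraries, followed by Aldoc, the brain aldolase (266), and the glutamate transporter gene Slc1a2 (235). The next were Fam107a (124), the second glutamate transporter gene Slc1a3 (101) and the calcium-binding protein gene S100b (86.5), and the lowest was Ranbp3l with 0.764. Gfap had 93.5 CPM per kilobase, between Slc1a3 and S100b, and Serpina3n 29.7, while 14 of the 26 reactive genes had less than 1 CPM per kilobase. Neighbours in this order were often not separable: all 6 values of one lay above all 6 of the next in 8 of 24 neighbouring pairs of general and 3 of 25 of reactive genes. These levels use all annotated exon bases of a gene, so a gene expressed as a short form is understated.

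The transporter and enzyme genes named next did not pass the threshold. Slc1a2 was 2939, 3270 and 2864 CPM in WT and 3187, 3118 and 3157 CPM in KO, and its interval of -0.05 to 0.17 on the log2 scale bounds any change. Glul was 1368, 1455 and 1575 CPM in WT and 1502, 1510 and 1573 CPM in KO, which overlap. Slc1a3 was 770, 732 and 898 CPM in WT and 914, 919 and 917 CPM in KO. Here WT replicate 3 lay just under the KO libraries and the other WT libraries well under them (log2 fold change 0.20, SE 0.0670, adjusted p = 0.107, edgeR). Slc7a10, a transporter of serine and other small amino acids, was 29.4, 29.2 and 32.3 CPM in WT and 33.6, 35.8 and 35.2 CPM in KO (0.20, SE 0.0734, adjusted p = 0.132, edgeR), and 17.9% of its exon bases overlap those of Lrp3 on the other strand. Aldoc was 802, 742 and 941 CPM in WT and 894, 903 and 925 CPM in KO, and S100b 119, 101 and 142 CPM against 134, 136 and 139 CPM. In both, WT replicate 3 was the highest of all 6 libraries.

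Aqp4, the water channel of astrocyte endfeet, was 160, 152 and 132 CPM in WT and 175, 171 and 167 CPM in KO. The groups did not overlap, yet the difference missed the threshold (log2 fold change 0.21, SE 0.0711, adjusted p = 0.107, edgeR). Cbs, cystathionine beta-synthase, was 41.2, 43.8 and 40.2 CPM in WT and 45.8, 46.4 and 52.2 CPM in KO (0.21, SE 0.0719, adjusted p = 0.116, edgeR), and Ranbp3l 4.33, 4.96 and 4.01 CPM against 6.32, 5.05 and 6.75 CPM (0.45, SE 0.154, adjusted p = 0.113, edgeR). The gap between groups was narrow in both. The gap junction genes Gja1 and Gjb6 had log2 fold changes of 0.01 (95% interval -0.12 to 0.14) and -0.04 (-0.28 to 0.19), and the folate enzyme gene Aldh1l1, a pan-astrocyte marker, 0.02 (-0.24 to 0.28). The glial transcription factor gene Sox9 had 0.10 (-0.11 to 0.30).

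Ppp1r3c, which targets a phosphatase to glycogen, was the general gene nearest to a fall. It was 58.5, 67.1 and 65.1 CPM in WT and 55.5, 54.0 and 54.4 CPM in KO, the one member with all KO values below WT (log2 fold change -0.22, SE 0.0657, adjusted p = 0.0673, edgeR). It passed without WT replicate 1 (-0.27, adjusted p = 0.0316, edgeR). Fam107a, a stress-responsive actin-binding protein gene, ranged widely within WT, 391, 504 and 590 CPM, and was 450, 457 and 496 CPM in KO.

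**Figure D3:**
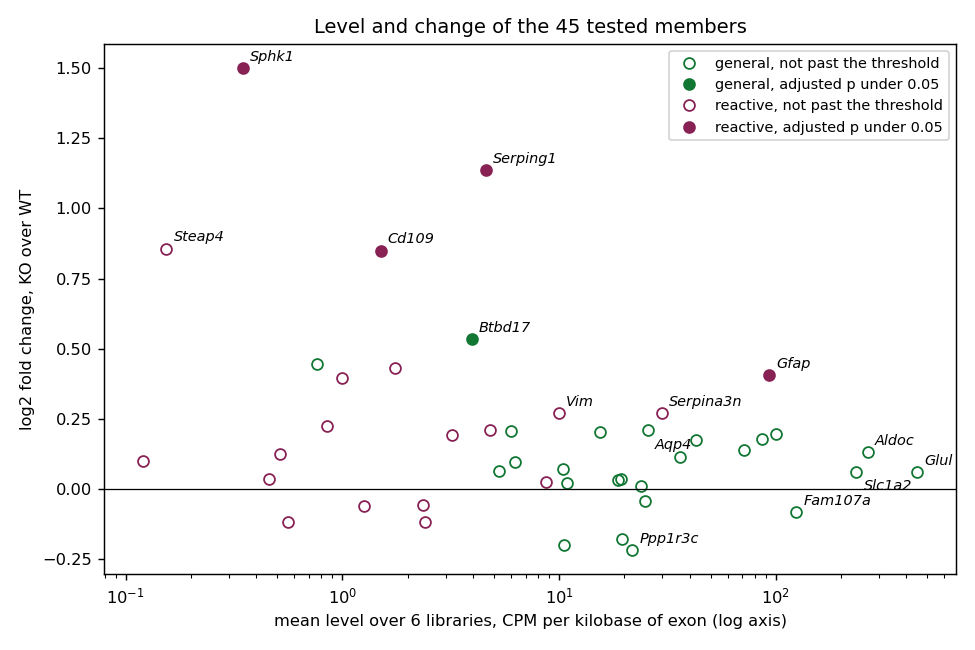
Mean level over the 6 libraries in CPM per kilobase of exon (log axis) against the log2 fold change (KO over WT) of the 45 tested astrocyte genes; filled points passed the threshold. Gfap, at 93.5 CPM per kilobase, is the one gene above 5 CPM per kilobase that passed, and Serping1, Cd109, Sphk1 and Btbd17 lie under 5 CPM per kilobase.

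How many general genes passed depended on WT replicate 3. This library held the highest WT value for 14 of 25 general and 11 of 20 reactive genes. Without it 7 general genes rose, Btbd17 with Aldh1l1, Slc1a3, Aldoc, S100b, Mlc1 and Acsbg1, and 6 reactive genes, the 4 named with Serpina3n and Vim. Without KO replicate 3, which was the highest KO library for 16 of 20 reactive genes, 0 general and 3 reactive genes rose. KO replicate 2 was the lowest KO library for 12 of 20 reactive genes but for 6 of 25 general genes. The summed level of the general genes was 7854, 8319 and 8632 CPM in WT and 8694, 8675 and 8808 CPM in KO, a ratio of means of 1.06, and that of the reactive genes 588, 589 and 661 CPM and 735, 748 and 824 CPM, a ratio of 1.26. As a share of the general sum the reactive sum was 7.49, 7.08 and 7.66% in WT and 8.45, 8.63 and 9.35% in KO. Most of the reactive sum is Gfap, and without it these shares nearly touched, at 3.43% in WT replicate 3 and 3.49% in KO replicate 2. The median level of the 20 tested reactive genes, as the log2 difference from each gene's WT mean, was 0.09 in KO replicate 2 and 0.11 in WT replicate 3, so that by this measure the groups overlapped. The difference between general and reactive genes was not tested.

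**Figure D4:**
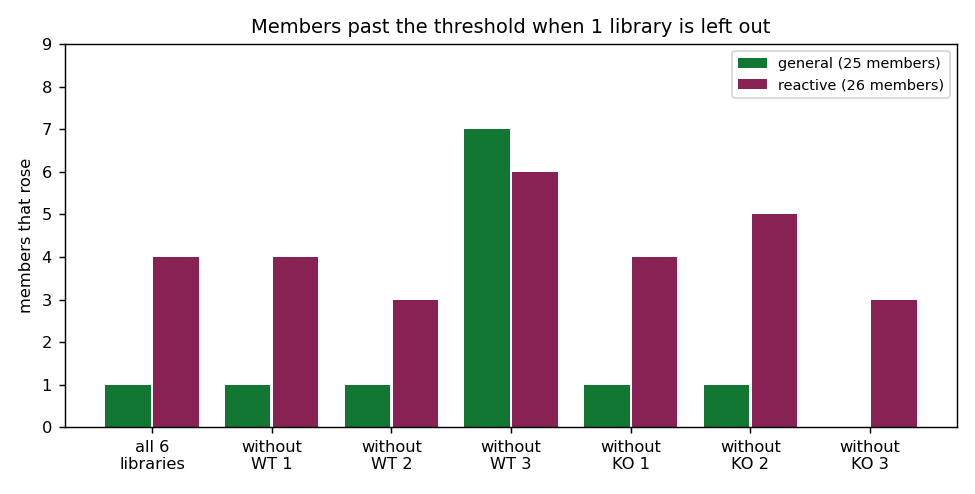
Number of general (25) and reactive (26) astrocyte genes that rose (adjusted p under 0.05, edgeR) with all 6 libraries and with each library left out in turn. The count of general genes is 7 without WT replicate 3 and 0 or 1 otherwise, and that of reactive genes runs from 3 to 6.

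Of 40 other astrocyte genes 5 rose and 1 fell, beside 5.90% and 1.05% of all genes tested, with a median log2 fold change of 0.08. Apoe, the main lipid carrier of the brain, was 1221, 1074 and 1324 CPM in WT and 1416, 1527 and 1484 CPM in KO (0.29, SE 0.0672, adjusted p = 0.0165, edgeR). Elovl2, an elongase of polyunsaturated fatty acids (0.45), and Mfge8, a bridging protein of phagocytosis (0.32), rose as well. Etnppl, which breaks down phosphoethanolamine, fell from 17.2, 24.1 and 36.8 CPM in WT to 14.4, 14.0 and 13.1 CPM in KO (-0.91, SE 0.20, adjusted p = 0.0117, edgeR). All KO values lay below WT, and WT replicate 3 was more than 2 times as high as WT replicate 1. The call of Apoe was lost without WT replicate 1 (adjusted p = 0.0527), KO replicate 2 (0.0767) or KO replicate 3 (0.0780), and that of Etnppl without KO replicate 3 (0.0624) in edgeR and in DESeq2 (0.0580). With KO replicates 1 and 3 both left out, Apoe, Elovl2, Mfge8 and Etnppl missed the threshold (adjusted p = 0.126 to 0.211, edgeR) at fold changes of 0.34, 0.46, 0.36 and -0.90.

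Of 24 other genes of reactive astrocytes, 23 were tested and 7 rose and 0 fell, beside 5.90% and 1.05% of all genes tested. At an unadjusted p under 0.05 in edgeR 11 were higher and 0 lower, beside 3412 of all 16861 genes tested in either direction. DESeq2 gave 7 and 0 adjusted calls. The median log2 fold change was 0.32. The antigen-presenting H2-K1 was 20.0, 17.9 and 23.9 CPM in WT and 36.2, 39.4 and 43.8 CPM in KO (0.95, SE 0.106, adjusted p = 4.0e-05, edgeR). Synm, the filament partner of GFAP and vimentin, was 56.2, 60.6 and 58.8 CPM in WT and 79.3, 79.6 and 74.2 CPM in KO (0.41, SE 0.0604, adjusted p = 0.000569, edgeR). Nfe2l2, the master factor of antioxidant genes (0.68), and Clcf1, a cytokine of the interleukin-6 family (1.16), also rose. In all 4 every KO library lay above every WT library, and their calls held in all 13 alternatives. These genes are also expressed by neurons, microglia or vessels, and which cells gave the difference was not tested.

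Of 28 genes of JAK-STAT3 and NF-kB signalling, 24 were tested and 3 rose and 0 fell (12.5% called, beside 6.95% of all genes tested), and 2 to 5 rose over the alternatives. Stat3 was 67.1, 65.2 and 64.0 CPM in WT and 86.4, 90.5 and 93.2 CPM in KO (0.46, SE 0.0576, adjusted p = 0.000130, edgeR), tightly grouped on both sides. Clcf1 was 1.38, 1.98 and 1.72 CPM in WT and 3.72, 3.92 and 3.75 CPM in KO, well apart from each other (1.16, SE 0.186, adjusted p = 0.00116, edgeR). Lif, leukaemia inhibitory factor, was 1.22, 1.67 and 1.72 CPM in WT and 2.60, 2.83 and 2.38 CPM in KO (0.76, SE 0.207, adjusted p = 0.0414, edgeR). Its call was fragile: adjusted p was 0.134 in DESeq2, and in edgeR 0.0601 with the replicate block and 0.0731 to 0.146 on leaving out any library but WT replicate 3. DESeq2 called 2 of the 24.

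Of 20 glucocorticoid-responsive genes, 19 were tested and 0 rose or fell in edgeR or DESeq2, and 3 fell in edgeR with no filter on low counts. Of all genes tested, 6.95% were called in edgeR. At an unadjusted p under 0.05 in edgeR 1 was higher and 8 were lower, beside 3412 of all 16861 genes tested in either direction. The median log2 fold change was -0.18. Tsc22d3, a glucocorticoid-induced leucine zipper gene, was 76.5, 117 and 146 CPM in WT and 89.3, 86.5 and 72.8 CPM in KO, and Errfi1, an inhibitor of EGF receptors, 49.0, 54.3 and 56.3 CPM against 48.9, 47.5 and 42.3 CPM. Without WT replicate 1 4 of the 19 fell, among them Tsc22d3 (log2 fold change -0.67, adjusted p = 0.00192, edgeR). Fkbp5, which belongs to the same response, had a log2 fold change of 0.02.

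Neuron markers summed to 12407 to 12978 CPM in WT and 11548 to 11951 CPM in KO. Of the 12, 1 fell, beside 1.05% of all genes tested, the vesicle fusion gene Snap25 (-0.23, SE 0.0572, adjusted p = 0.0279, edgeR). Its call was lost without WT replicate 1 (0.0520) or KO replicate 1 (0.0889), 2 (0.11) or 3 (0.0996). Microglia markers summed to 508 to 604 CPM in WT and 594 to 672 CPM in KO; all 14 were higher in KO and 0 passed (7 at an unadjusted p under 0.05 in edgeR, 0 calls in DESeq2, and in edgeR 1 call with library size alone or no filter, 3 without WT replicate 3 and 2 without KO replicate 1). Cx3cr1, the fractalkine receptor, came closest in edgeR (0.24, SE 0.0711, adjusted p = 0.0610). Cx3cr1 passed without WT replicate 3 (0.0332) or KO replicate 1 (0.0238). Of all 16861 genes tested, 3412 had an unadjusted p under 0.05 in edgeR, in either direction.

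Of 10 oligodendrocyte markers 1 rose, the myelin gene Mbp (0.25, adjusted p = 0.0126, edgeR), which lost its call without KO replicate 2 (0.0564) or 3 (0.107). DESeq2 called 2 of the 10, and edgeR with no filter 5. All 10 were higher in KO, 8 of them at an unadjusted p under 0.05 in edgeR. The sums were 5142 to 5587 CPM in WT and 5726 to 6434 CPM in KO. Of 8 precursor markers C1ql1 rose (1.42), and the sums were 302 to 340 and 335 to 364 CPM. Of 10 endothelial markers 0 passed in edgeR (2 at an unadjusted p under 0.05) or DESeq2, with Emcn (0.40) and Itm2a (0.22) closest; the sums were 293 to 307 and 314 to 340 CPM. Itm2a passed without WT replicate 1 (adjusted p = 0.0426, edgeR). Of 12 mural and fibroblast markers Pdgfrb rose (0.37, adjusted p = 0.0337, edgeR), and its call was lost without WT replicate 1 (0.0992), 2 (0.0607) or 3 (0.0518) or KO replicate 1 (0.111) or 3 (0.201). The number of these markers that rose was 6 with the replicate block, 5 without KO replicate 2 and 4 with no filter, and 0 without any 1 of the other 5 libraries. Of 10 choroid plexus and ependyma markers 9 were tested and Kl rose in every KO library (22.0 to 58.9 CPM in the mean). The sums were 43.2 to 65.4 CPM in WT and 141, 81.4 and 141 CPM in KO. Kl was a large part of these sums, whose means were 54.0 CPM in WT and 121 CPM in KO. Ttr, by contrast, was lowest in KO replicate 2. With KO replicates 1 and 3 both left out, C1ql1 and Kl kept their calls, Snap25 (adjusted p = 0.341) and Mbp (0.225) did not, and Pdgfrb came to 0.11 (0.839). Beside these counts of called markers, 5.90% of all genes tested rose and 1.05% fell. Beside the unadjusted counts, 3412 of all 16861 genes tested had a p under 0.05 in edgeR, in either direction. No marker of these cell types was at 0 in any library. The part of any of these cells in the astrocyte results was not tested.

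**Figure D5:**
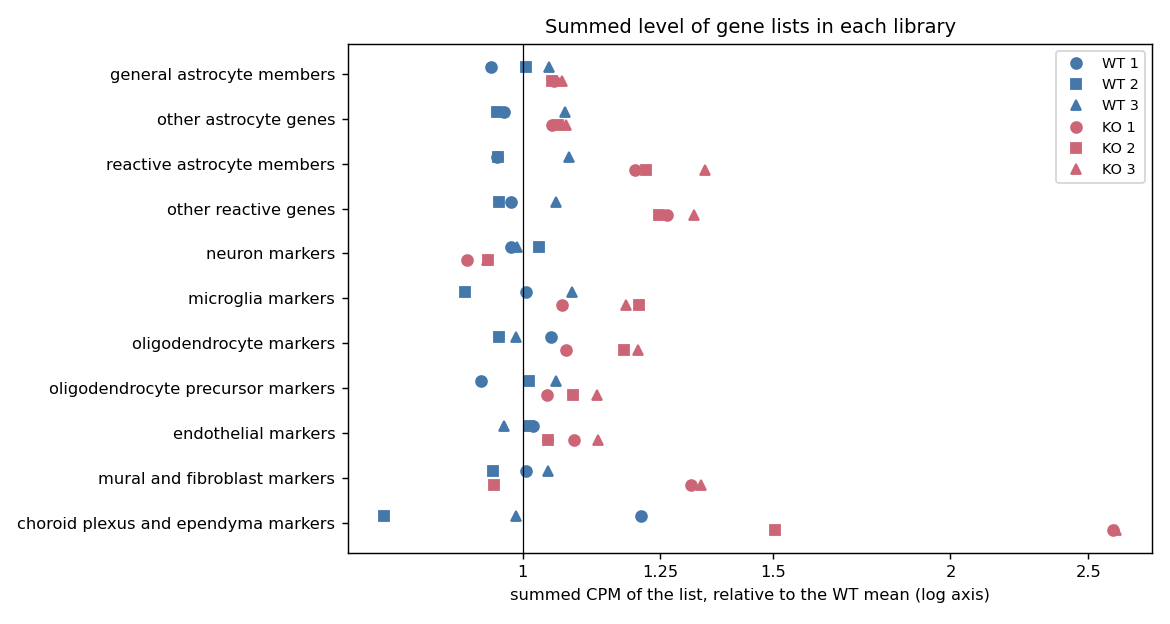
Summed CPM of each gene list in each library, divided by the WT mean of that list (log axis; circles, squares and triangles are replicates 1, 2 and 3). Both reactive lists lie above WT in all 3 KO libraries, while for mural and fibroblast markers KO replicate 2 lies among the WT libraries.

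By position, 3 of the 5 genes that rose lie on chromosome 11, which holds 5 of the 51 members and 7.94% of tested genes, and on which 9.21% of tested genes rose. Of the 20 nearest tested neighbours of these 5 genes, 2 on each side, 3 rose and 1 fell, beside 5.90% and 1.05% of all genes tested. The one that fell was Ypel4, 26732 bases from Serping1 (log2 fold change -0.25, SE 0.0627, adjusted p = 0.0256, edgeR). Col12a1, 882738 bases from Cd109, rose (0.44, SE 0.103, adjusted p = 0.0169, edgeR). Kif19a, a kinesin gene 478 bases from Btbd17, rose (log2 fold change 0.63, SE 0.163, adjusted p = 0.0311, edgeR), as did C1ql1, 38352 bases from Gfap. Ccdc103, which lies 2120 bases on the other side of Gfap, had a log2 fold change of 0.05 (SE 0.169). These neighbours were named after their values were seen.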

How the data were processed

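Gene counts deposited by the authors were used as given, as raw whole numbers per Ensembl gene, not divided by depth or length. The tools named are cutadapt 1.18, HISAT2 and HTSeq 0.11.1, with GRCm38 (mm10) as the build, per the submitters' processing notes. Annotation release and strandedness were not given in the sources used here, and overlapping and antisense genes may share reads. Symbols, positions and exon lengths are from GENCODE M21 (GRCm38), promoters from RefSeq.

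Genes were filtered with filterByExpr (minimum count 10, minimum total 15), scaled with TMM and tested KO against WT with edgeR 4.0.16 (R 4.3.3) by quasi-likelihood, group being the single term. The fit ran over all genes and was checked on simulated data. SE is the fold change divided by the root of F. Levels are TMM-scaled CPM. DESeq2 1.42.0, RLE scaling, scaling by library size, no filter, a filter of 1 CPM in 3 libraries, a replicate block and leaving out each library were tried as alternatives; leaving out KO replicates 1 and 3 together was added after the data were seen. Motifs and CpG were counted in RefSeq windows.

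The members and lists were chosen with earlier results of these data known. Named were all members past the threshold, the 6 general and 6 reactive others with the smallest p and those with the highest level per kilobase, and in each further list up to 4 genes past the threshold, or else the 2 with the smallest p; a gene named outside this was named after its values were seen. One gene that this rule names is not reported here.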

Additional observations from a re-analysis of the deposited data

How the results depend on the processing

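Of the 5 members that rose, Cd109 kept its call in all 13 alternatives and Gfap and Serping1 in the 12 that kept at least 2 KO libraries; none changed sign in any. Of the 40 tested members that did not pass, 30 passed in no alternative and 10 in at least 1. With KO replicates 1 and 3 both left out, 424 genes rose and 16 fell over the whole table, 0 general and 1 reactive members rose and the reactive median was 0.0605; fewer libraries were then compared. With no filter on low counts 279 genes fell. Leaving out 1 library at a time gave 676 to 1101 genes that rose and 48 to 323 that fell, 0 to 7 general and 3 to 6 reactive members that rose, and 0 to 1 general members that fell (Ppp1r3c, without WT replicate 1). With the replicate number as a block 960 genes rose and 149 fell, and 1 general and 6 reactive members rose. Deviations of same-numbered libraries from their group means correlated at 0.00465, -0.00921 and -0.0240, and those of unlike-numbered libraries at -0.124 to 0.128. With 3 libraries per group these values cannot tell whether libraries of WT and KO were paired. At this depth genes near or under 1 CPM, such as Steap4 and B3gnt5, had intervals too wide to tell a rise like that of Gfap from no change.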
